A study of Mus musculus with 24 samples.

Results

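The 36 aminoacyl-tRNA synthetase genes listed in the expression table were followed in mouse bone-marrow osteoclast precursors from wild-type (WT) and STING-deficient (KO) animals. They were selected and classed by gene symbol: 20 were classed as cytosolic (Aars, Cars, Dars, Eprs, Farsa, Farsb, Gars, Hars, Iars, Kars, Lars, Mars, Nars, Qars, Rars, Sars, Tars, Vars, Wars and Yars) and 16 as mitochondrial, whose symbols end in 2 (Aars2, Cars2, Ears2, Fars2, Hars2, Iars2, Lars2, Mars2, Nars2, Pars2, Rars2, Sars2, Tars2, Vars2, Wars2 and Yars2). The table holds 10721 genes, of which 10081 reached a group mean of at least 1 FPKM (fragments scaled to transcript length and to the library's mapped total) in at least 1 group and were tested. All 36 synthetase genes were among them. Marrow cells came from female mice aged 10 to 12 weeks and were expanded for 72 h in 40 ng/mL mCSF, the growth factor that maintains the macrophage lineage. Wells of 25000 cells then received RANKL, the cytokine that drives osteoclast formation, at 10 ng/mL together with 20 ng/mL mCSF. RNA was taken before RANKL (day 0) and at days 2, 3 and 4, from wells pooled for each mouse. The 8 groups of genotype and day hold 3 libraries each, and every mouse gave 1 library per day (WT mice 480, 529 and 531, KO mice 481, 528 and 532). The sources used here do not describe the mutant STING allele. RANKL, the lower mCSF dose and time in culture change together between day 0 and the later days, so their parts cannot be told apart.

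Aminoacyl-tRNA synthetases join each amino acid to its matching transfer RNA, the step that sets which residue a codon will add to a protein. The cytosolic enzymes feed the ribosomes of the cytoplasm, and several of them sit together in a multisynthetase complex. A largely separate set, encoded in the nucleus and imported, charges the transfer RNAs of the mitochondrial genome, which encodes subunits of the respiratory chain. The split is not complete in the classes used here. Gars and Kars have no mitochondrial counterpart among the genes followed and are counted as cytosolic. Gene symbols and gene-level FPKM do not show whether their products also serve mitochondria. Osteoclasts, the bone-resorbing cells formed by fusion of macrophage precursors, are rich in mitochondria.

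The libraries carried the marks of osteoclast formation. The summed FPKM of 9 osteoclast genes (Acp5, Atp6v0d2, Calcr, Ctsk, Dcstamp, Itgb3, Mmp9, Ocstamp and Oscar) ranged from 60.1 to 166 over the 6 libraries of day 0 and from 41422 to 49978 at day 4. The gene for STING (Tmem173) read 21.3 to 28.7 FPKM in WT and 4.57 to 5.08 in KO at day 0, and 3.38 to 5.01 against 2.65 to 2.86 at day 4; the libraries did not overlap on any day, the difference passed at days 0 and 2 (limma adjusted p = 8.26e-06 and 0.0232) and not at days 3 and 4 (0.934 and 0.224), and whether these reads cover the mutated part is not known. Other cell types moved with the day. The summed FPKM of the 8 neutrophil genes in the table fell from between 5711 and 15561 at day 0 to between 125 and 212 at day 2. For 7 B-cell genes it fell from between 26.1 and 126 to at most 0.433 at day 2, with 3 of the 7 at 0 in every library of that day, and for 9 macrophage and monocyte genes it went from between 13235 and 24940 to between 4121 and 5325 at day 2 and between 7673 and 11225 at day 4. Proliferation genes (15, such as Pcna and Birc5) summed to 844 to 1391 at day 0, 657 to 887 at day 2 and 261 to 345 at day 4. Erythroid (2 genes in the table) and mast cell and basophil genes (3) summed to at most 21.4 and 20.7 at day 0 and to at most 0.23 and 0.231 later, and 4 stromal genes to at most 5.28 on any day. The T and NK cell genes looked for (Cd3e, Cd3d, Cd3g, Nkg7 and Klrb1c) are not in the table. The part of these shifts in the synthetase changes was not tested, and in bulk RNA fewer cells of a type and less RNA per cell cannot be told apart. Day 0 libraries varied most: the median SD of a gene was 0.192 (WT) and 0.182 (KO) on the log2 scale at day 0 and 0.0782 to 0.125 at the later days.

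Some of the cytosolic genes share a motif in their promoters, and it is shown first because the same genes recur below. The RefSeq promoter table (GRCm38.p6; 250 bases before to 50 after each gene's start, 300 in all) has entries for 27 of the 36 genes, 13 cytosolic and 14 mitochondrial. The core of the CARE, the element bound by ATF4 and its partners in amino acid response genes, was searched as TGATGNAA on both strands. It lies in 5 of the 13 cytosolic promoters (38.5%), in 0 of the 14 mitochondrial ones and in 4.51% of all 27025 promoters. The 5 genes are Aars, Gars, Iars, Tars and Yars, and 1 window is shown for each. A window has 30 bases, is printed in the direction of the gene with the match in capitals, and was read from that table.
Aars, chr8:111033840-111033869, plus strand: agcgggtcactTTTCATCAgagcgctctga
Gars, chr6:55037960-55037989, plus strand: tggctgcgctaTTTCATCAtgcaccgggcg
Iars, chr13:49682126-49682155, plus strand: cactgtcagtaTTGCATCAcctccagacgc
Tars, chr15:11399655-11399684, minus strand: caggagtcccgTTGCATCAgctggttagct
Yars, chr4:129189895-129189924, plus strand: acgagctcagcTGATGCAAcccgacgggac
In Yars the match reads in the direction of the gene, and in the other 4 windows it lies on the opposite strand. Its first base is at 10 from the start site in Aars, at -30 in Gars, 8 in Iars, -15 in Tars and 4 in Yars. A match of letters is a description and not a shown binding site.

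The same search gave less contrast for the other motifs. The element of NRF1, a factor known for genes of mitochondrial function, was searched as GCGCA and GCGC with any 1 base between them, on both strands, and was found in 3 of 13 cytosolic promoters (Farsb, Kars, Tars) and in 2 of 14 mitochondrial ones, against 5.19% of all promoters. The mitochondrial pair is printed because Iars2 and Mars2 are among the genes with the largest rises below.
Iars2, chr1:185329374-185329403, minus strand: ccgccccggaGCGCGTGCGCagttcctcgc
Mars2, chr1:55237169-55237198, plus strand: ccgtccagctGCGCACGCGCcctttcccgt
The capitals mark the match. No match of one motif overlaps a match of another in these promoters. The E-box CACGTG, the letters bound by MYC and related factors, lay in 4 of 13 cytosolic promoters (Aars, Farsb, Iars, Tars), in 1 of 14 mitochondrial ones (Ears2) and in 8.09% of all. The letters AAGGTCA, bound by the ERR receptors, were in 0 of the 27, against 5.38% of all promoters.

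By day 2 most synthetase mRNAs had risen in both compartments and both genotypes. In WT, 15 of 20 cytosolic genes rose and 1 fell against day 0, and 12 of 16 mitochondrial genes rose and 0 fell (limma on log2(FPKM + 1), Benjamini-Hochberg adjusted over all tested genes, two-sided, threshold 0.05). Over all genes tested, 38.5% rose and 37.5% fell, and the synthetase shares of rises, 15 of 20 and 12 of 16, stand beside that value. The median log2 change was 0.65 for the cytosolic and 0.79 for the mitochondrial genes, against 0.00 over all genes. In KO, 14 cytosolic genes rose and 1 fell, with a median of 0.56, and 13 mitochondrial genes rose and 0 fell, with a median of 0.84; over all genes 37.1% rose and 36.5% fell. Summed over the 20 cytosolic genes, the level went from between 897 and 1129 FPKM in the 6 libraries of day 0 to between 1549 and 1647 at day 2. The 16 mitochondrial genes together went from between 131 and 143 to between 213 and 225 FPKM. For neither sum did the libraries of the days overlap.

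**Figure D1:**
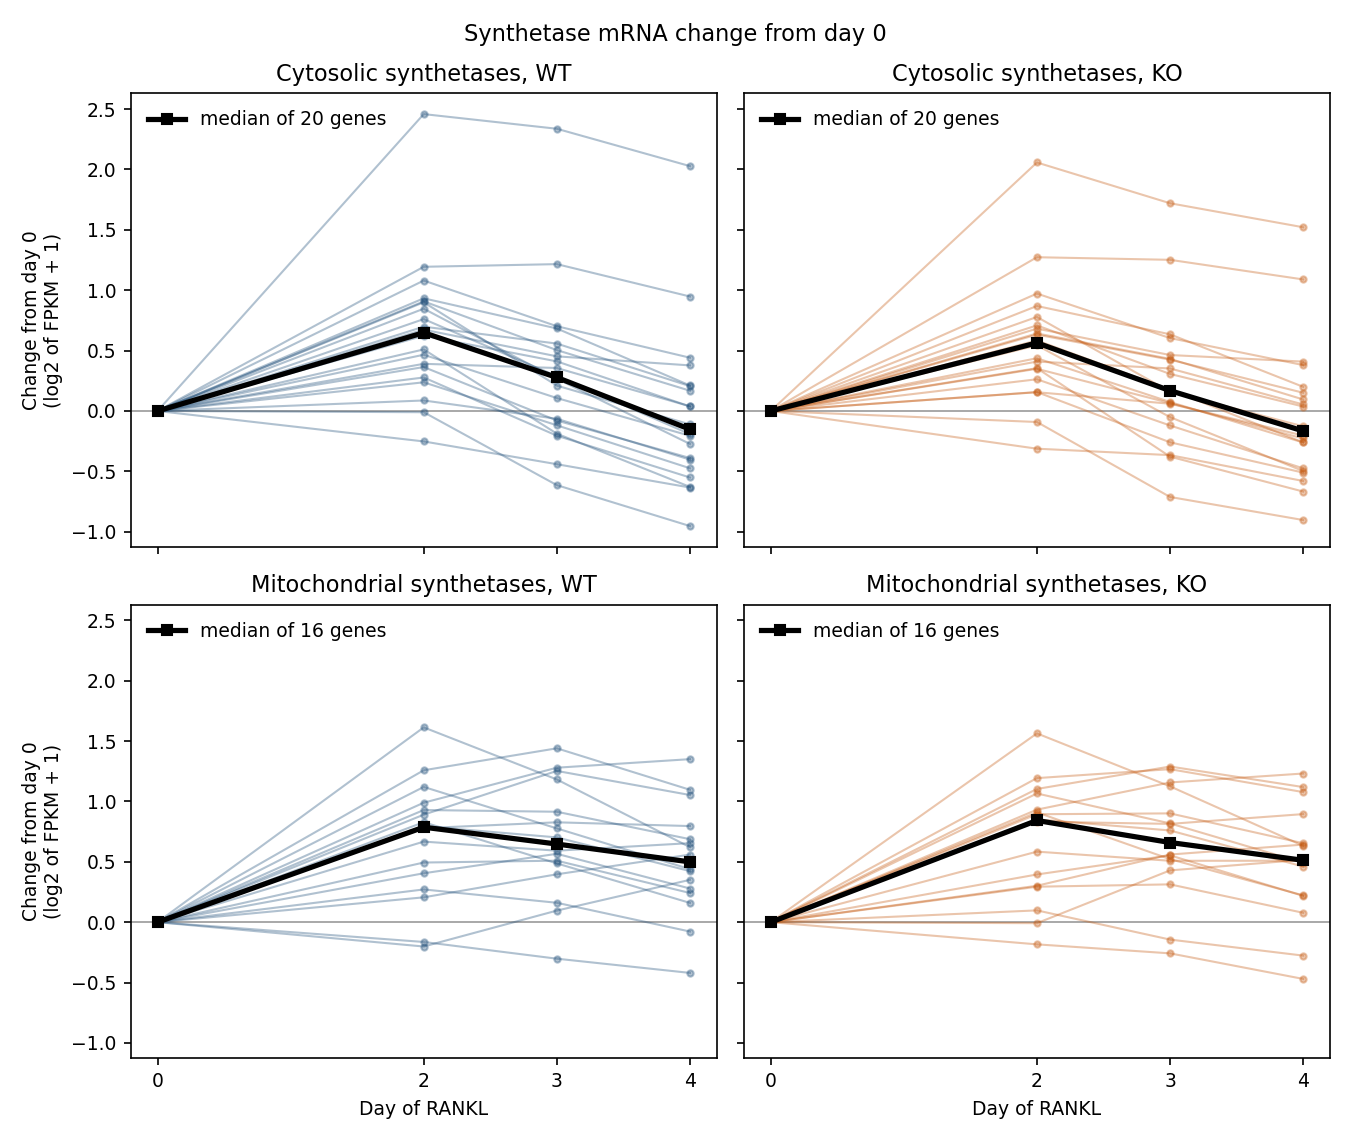
Change of each synthetase mRNA from day 0, as a difference of group means of log2(FPKM + 1), against the day of RANKL; thin lines are single genes and the thick line is the median of the class, with cytosolic genes above, mitochondrial genes below, WT left and KO right. The cytosolic median rises to 0.65 (WT) and 0.56 (KO) at day 2 and lies at -0.15 and -0.17 at day 4, while the mitochondrial median is 0.50 and 0.51 at day 4.

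The largest rise was that of Iars, the cytosolic isoleucyl enzyme (chromosome 13, 49682100 to 49734267, plus strand, GRCm38, positions here from GENCODE). Values are given in the order of the mice above. In WT, Iars read 8.87, 15.5 and 10.4 FPKM at day 0, 70.7, 73.5 and 56.3 at day 2, 64.3, 58.8 and 59.97 at day 3 and 56.0, 47.6 and 44.1 at day 4. In KO it read 16, 12.3 and 23.3 at day 0, 73.5, 67.6 and 76.4 at day 2, 60.5, 52.3 and 58.8 at day 3 and 51.7, 46.8 and 50.6 at day 4. Every library with RANKL lay above every library of day 0, by a wide margin. The log2 change at day 2 was 2.46 in WT (SE 0.184, limma adjusted p = 2.65e-10) and 2.06 in KO (SE 0.184, limma adjusted p = 4.01e-09), and at day 4 it was 2.03 and 1.52. Iars went from the lowest level of the 20 cytosolic genes in WT at day 0 to one in the middle of them at day 2. A processed pseudogene, Gm4849, matches 1656 bases of an Iars transcript at 96.0% identity and is not in the table, so reads of the pair may have been split or merged.

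Dars, the aspartyl enzyme of the multisynthetase complex (chromosome 1, 128363707 to 128417368, minus strand), had the next largest rise among cytosolic genes and kept the largest share of it, with 83.7% of its day 2 mean left at day 4 in WT. In WT it read 29.6, 48.6 and 43.2 FPKM at day 0, 94.6, 80.4 and 102 at day 2, 95.7, 87.6 and 97.1 at day 3 and 76.4, 78.8 and 76.9 at day 4. KO libraries read 34.7, 45.6 and 37.4 at day 0, 94.4, 105 and 87.8 at day 2, 92.7, 101 and 89.0 at day 3 and 84.5, 91.2 and 77.0 at day 4. Days 2 and 3 overlapped in each genotype, and all 3 later days lay above day 0. Its log2 change at day 4 against day 0 was 0.95 in WT (SE 0.149, limma adjusted p = 8.14e-06) and 1.09 in KO (SE 0.149, limma adjusted p = 1.46e-06).

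The glycyl, lysyl, prolyl-glutamyl, glutaminyl and tryptophanyl enzymes were looked at for their known roles: Gars and Kars are disease genes of peripheral nerve, Eprs carries both the glutamyl and the prolyl activity in 1 protein, Qars sits in the multisynthetase complex, and Wars is an interferon-inducible gene. Gars in WT read 71.1, 100.5 and 98.0 FPKM at day 0, 179, 159 and 174 at day 2, 158, 139 and 134 at day 3 and 116, 91.4 and 103 at day 4. Kars read 58.5, 64.7 and 62.2 at day 0, 101, 106 and 109.6 at day 2, 77.3, 76.8 and 73.0 at day 3 and 56.0, 49.4 and 56.8 at day 4. Both stood clear of day 0 at day 2. By day 4 the Gars libraries overlapped day 0 and the Kars libraries lay just below it. Their log2 changes at day 2 were 0.93 for Gars (SE 0.138, limma adjusted p = 4.36e-06) and 0.76 for Kars (SE 0.0951, limma adjusted p = 4.56e-07).

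Eprs also peaked at day 2, at a lower level, and at day 4 its WT libraries still lay above those of day 0. In WT it read 35.6, 35.3 and 37.6 FPKM at day 0, 59.7, 60.7 and 57.6 at day 2, 55.8, 52.5 and 52.9 at day 3 and 44.7, 41.6 and 39.5 at day 4, a log2 change of 0.70 at day 2 (SE 0.0885, limma adjusted p = 5.56e-07). Qars read 81.2, 61.5 and 59.0 at day 0, 88.0, 87.6 and 87.2 at day 2, 86.3, 89.2 and 81.2 at day 3 and 68.3, 64.8 and 72.4 at day 4, a log2 change of 0.39 at day 2 (SE 0.106, limma adjusted p = 0.0024). Of the Qars libraries at day 0, that of mouse 480 stood apart from the others and reached the lowest of the day 3 libraries. Wars read 26.5, 34.6 and 32.6 at day 0, 42.8, 44.3 and 42.8 at day 2, 35.4, 32.6 and 32.6 at day 3 and 30.3, 24.4 and 26.0 at day 4, and it rose by 0.47 at day 2 (SE 0.107, limma adjusted p = 0.000546). At day 4 Wars overlapped day 0 in WT, with a log2 difference of -0.21 (limma adjusted p = 0.0763); without mouse 480 that adjusted p was 0.000694.

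In KO libraries these genes rose at day 2 as in WT, while Gars and Wars stood differently against day 0 at day 4. Gars read 92.3, 95.9 and 96.0 FPKM at day 0, 179, 173 and 170.3 at day 2, 153, 149.8 and 140.0 at day 3 and 119.9, 103 and 105 at day 4. Wars read 31.6, 31.3 and 34.4 at day 0, 44.7, 43.9 and 44.0 at day 2, 34.6, 33.9 and 34.0 at day 3 and 28.5, 25.5 and 26.7 at day 4. Their day 2 libraries lay above all those of the other days in this genotype. The log2 rise at day 2 was 0.87 for Gars, 0.58 for Kars, 0.63 for Eprs, 0.41 for Qars and 0.44 for Wars, and each passed the test. At day 4 the KO libraries of Gars lay above those of day 0, though the gene did not pass. Those of Wars and Kars lay below day 0, and both genes passed as lower in KO, which neither did in WT. Without mouse 532 these KO calls were lost (limma adjusted p = 0.183 for Wars and 0.142 for Kars).

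A few cytosolic genes did not take part in the rise. Sars, the seryl enzyme, was the gene that fell at day 2, and Cars, the cysteinyl enzyme, held its level to day 2 and then fell. In WT, Sars read 70.2, 80.8 and 89.3 FPKM at day 0, 64.3, 64.5 and 71.9 at day 2, 59.7, 60.1 and 55.7 at day 3 and 55.2, 45.6 and 52.7 at day 4. Cars read 32.1, 44.2 and 46.7 at day 0, 40.1, 38.3 and 42.2 at day 2, 28.5, 25.2 and 24.7 at day 3 and 23.8, 19.4 and 18.5 at day 4. For both genes the 3 libraries of day 4 lay below all those of day 0, by the most for Cars. Sars at day 2 overlapped day 0 (log2 change -0.25, SE 0.107, limma adjusted p = 0.038), and this call was lost without mouse 529 (adjusted p = 0.126) or mouse 531 (0.128). At day 4 the log2 change in WT was -0.63 for Sars (SE 0.105, limma adjusted p = 1.53e-05) and -0.95 for Cars (SE 0.148, limma adjusted p = 6.61e-06). KO gave -0.58 and -0.90. With Cars, the genes Farsa, Hars and Rars also missed the threshold at day 2 in WT, with log2 changes of 0.09, 0.24 and 0.28.

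The mitochondrial genes are expressed at lower levels, with group means at day 2 in WT from 3.67 FPKM (Nars2) to 34.5 (Iars2), against 36.5 (Lars) to 199.7 (Nars) for the cytosolic genes. Their largest rise at day 2 was that of Mars2, the methionyl enzyme (chromosome 1, 55237177 to 55248470, plus strand), which is named here after its values were seen. Mars2 read 1.75, 2.44 and 2.37 FPKM at day 0 in WT, 9.50, 8.23 and 8.41 at day 2, 7.15, 6.04 and 5.49 at day 3 and 4.78, 3.71 and 3.26 at day 4. Its KO values were 2.33, 2.204 and 2.38 at day 0, 9.61, 8.50 and 8.21 at day 2, 6.53, 6.30 and 5.79 at day 3 and 3.99, 4.19 and 4.17 at day 4. No library of 1 day overlapped another day in either genotype. The log2 change at day 2 was 1.61 in WT (SE 0.156, limma adjusted p = 1.22e-08) and 1.56 in KO (SE 0.156, limma adjusted p = 2.08e-08).

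After day 2 most cytosolic genes fell in each step, while the mitochondrial genes were divided to day 3 and mostly fell from day 3 to day 4; the difference between the compartments was not tested. From day 2 to day 3 in WT, 16 of 20 cytosolic genes fell and 0 rose, with a median log2 change of -0.36, while 5 of 16 mitochondrial genes rose and 3 fell, with a median of 0.00; over all genes 24.9% rose and 24.2% fell. From day 3 to day 4, 19 cytosolic genes fell and 0 rose (median -0.34), and 10 mitochondrial genes fell and 1 rose (median -0.23), against 19% and 19.8% of all genes that rose and fell. Nars was the cytosolic gene that missed the threshold in this last step. KO gave 0 rises and 16 falls among cytosolic genes from day 2 to day 3, with 23.6% and 20.3% of all genes, and 0 rises and 15 falls from day 3 to day 4, with 18.2% and 17.6%. Its mitochondrial genes gave 4 rises and 4 falls, then 0 rises and 8 falls. These day-to-day counts leaned on single mice. Without mouse 531, 10 cytosolic and 5 mitochondrial genes passed from day 2 to day 3 in WT; without mouse 529, 12 and 7 passed from day 3 to day 4, and without mouse 531 the mitochondrial count in that step was also 7. In KO the 8 mitochondrial calls from day 2 to day 3 became 5 without mouse 481 and 2 without mouse 528 or 532. From day 3 to day 4 the KO cytosolic count became 8 without mouse 528, and the mitochondrial count 5 without mouse 528 or 532.

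The highest mean level was at day 2 for 17 of 20 cytosolic genes in WT and 18 in KO, and day 4 for 0 in either genotype. Of the 16 mitochondrial genes, 7 in WT and 6 in KO peaked at day 2, 5 in each at day 3, and 3 and 4 at day 4. Fars2, Hars2 and Iars2 peaked at day 4 in both genotypes. The peak day was the same in WT and KO for 19 of 20 cytosolic and 14 of 16 mitochondrial genes; the exceptions were Dars, Nars2 and Rars2. At day 4 the median cytosolic gene stood at 61.4% of its day 2 mean in WT (range 44.5% to 83.7%) and 64.2% in KO. The median mitochondrial gene stood at 86.2% and 85.8%, with a range in WT of 44.9% (Mars2) to 150% (Fars2).

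Iars2, the mitochondrial isoleucyl enzyme (chromosome 1, 185284726 to 185329396, minus strand), rose to day 2 and again to day 3 in both genotypes. In WT it read 17.7, 19.1 and 14.1 FPKM at day 0, 37.0, 35.2 and 31.3 at day 2, 44.6, 41.6 and 40.7 at day 3 and 48.1, 42.4 and 42.9 at day 4. KO libraries read 20.8, 15.1 and 21.1, then 39.8, 34.3 and 36.4, then 43.7, 41.9 and 43.8, and 44.9, 44.9 and 46.5. Days 3 and 4 lay above day 2 in every library of both genotypes and overlapped each other in WT, and the step from day 3 to day 4 did not pass (log2 change 0.07 in each genotype, limma adjusted p = 0.466 and 0.452). In KO the call from day 2 to day 3 was lost without mouse 528 (0.0986) or 532 (0.14). The log2 change at day 4 was 1.35 in WT (SE 0.12, limma adjusted p = 2.82e-09) and 1.23 in KO (SE 0.12, limma adjusted p = 1.12e-08). An opposite-strand gene, Rab3gap2, shares 2034 exon bases with Iars2 (22.9% of its exon bases), and the authors' strand setting is not given in the sources used here.

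Lars2 and Wars2, the leucyl and tryptophanyl enzymes, peaked at day 3. Lars2 in WT read 3.91, 4.90 and 4.22 FPKM at day 0, 11.8, 12.8 and 10.8 at day 2, 14.4, 13.1 and 12.9 at day 3 and 10.4, 11.01 and 9.76 at day 4. Wars2 read 2.07, 1.72 and 1.42 at day 0, 4.64, 4.12 and 3.45 at day 2, 5.59, 5.33 and 5.55 at day 3 and 4.71, 4.86 and 4.40 at day 4. Day 3 was the highest group for both in WT, clear of the other days. At day 4 against day 0 the log2 change was 1.10 for Lars2 (SE 0.11, limma adjusted p = 1.89e-08) and 1.05 for Wars2 (SE 0.126, limma adjusted p = 2.13e-07). In KO it was 1.08 and 1.12.

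Nars2 and Rars2, the asparaginyl and arginyl enzymes, reached a plateau. Nars2 in WT read 1.22, 1.98 and 2.00 FPKM at day 0, 4.04, 3.11 and 3.85 at day 2, 3.62, 3.96 and 3.85 at day 3 and 3.73, 3.59 and 3.80 at day 4. Rars2 read 13.5, 15.7 and 15.0 at day 0, 28.7, 29.8 and 28.2 at day 2, 29.9, 27.0 and 29.0 at day 3 and 24.4, 24.2 and 24.4 at day 4. The later days overlapped one another for Nars2, and for Rars2 day 4 was lower than days 2 and 3 but well above day 0. Their log2 changes at day 4 were 0.80 (SE 0.124, limma adjusted p = 6.85e-06) and 0.69 (SE 0.0856, limma adjusted p = 3.8e-07) in WT, and 0.89 and 0.65 in KO.

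Fars2, Hars2 and Cars2 took other courses. Fars2, the phenylalanyl enzyme, read 19.8, 11.2 and 14.4 FPKM at day 0 in WT, 12.3, 12.7 and 13.2 at day 2, 15.6, 16.7 and 15.2 at day 3 and 18.6, 18.6 and 20.1 at day 4. Its rise came after day 2, with each later day above the one before, while day 0 spread over all of them through mouse 480. The log2 change from day 2 to day 3 was 0.30 in WT (SE 0.079, limma adjusted p = 0.0039), and KO libraries read 12.4, 14.1 and 12.6 at day 2 and 17.0, 19.5 and 17.5 at day 3 (limma adjusted p = 0.000146). With equal weights for all libraries the WT call was lost (adjusted p = 0.0659). Hars2, the histidyl enzyme, named after its values were seen, read 8.31, 7.11 and 5.52 at day 0, 8.78, 7.64 and 7.95 at day 2, 10.1, 8.57 and 9.57 at day 3 and 11.7, 9.93 and 10.4 at day 4 in WT. Day 4 was clear of day 0 (log2 change 0.56, SE 0.126, limma adjusted p = 0.000419). Cars2, the cysteinyl enzyme, was the mitochondrial gene that fell by day 4: it read 14.6, 17.5 and 18.1 at day 0, 14.8, 13.7 and 15.8 at day 2, 13.8, 13.4 and 12.8 at day 3 and 13.1, 10.996 and 12.6 at day 4. Its log2 change at day 4 was -0.42 (SE 0.132, limma adjusted p = 0.00634), with an adjusted p of 0.0871 without mouse 529 and 0.0544 without mouse 531, and KO gave -0.47 (limma adjusted p = 0.00293). The cysteinyl enzymes were thus lower at day 4 than at day 0 in both compartments.

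**Figure D2:**
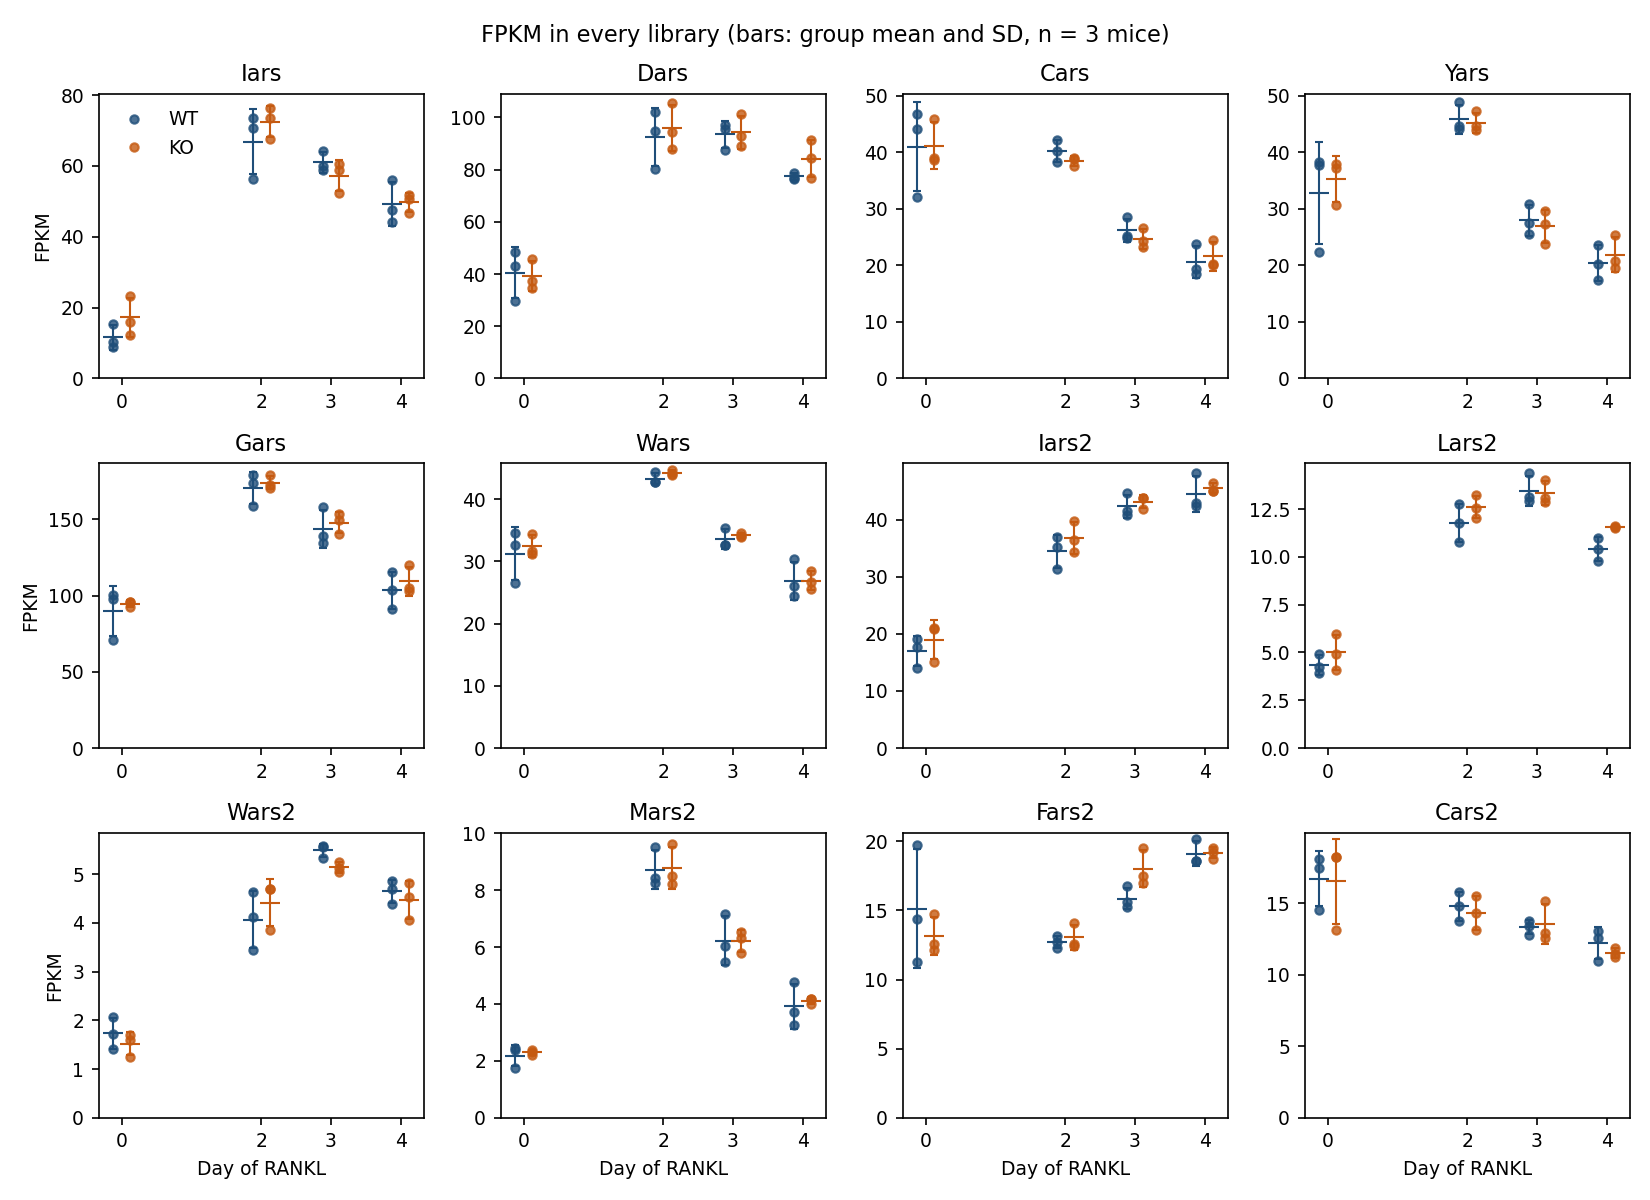
FPKM of 12 synthetase genes in every library against the day of RANKL, each panel with its own axis from 0; points are single libraries (blue WT, orange KO), and bars show the group mean and SD over 3 mice. Iars lies between 8.87 and 23.3 FPKM at day 0 and between 56.3 and 76.4 at day 2, Cars and Yars end below their day 0 mean, and Iars2 and Fars2 are highest at day 4.

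Against day 0, day 4 left the cytosolic genes split and the mitochondrial genes mostly up. In WT, 5 cytosolic genes were higher (Dars, Eprs, Iars, Lars and Nars) and 7 lower (Aars, Cars, Farsa, Hars, Rars, Sars and Yars), with a median log2 change of -0.15. Of the mitochondrial genes 12 were higher and 1 lower, with a median of 0.50. Over all genes 39.2% were higher and 42.7% lower, with a median of -0.07. After each library was scaled to the same median, the cytosolic split was 4 higher and 10 lower. Without mouse 480 it was 2 higher and 11 lower, and without mouse 529 or 531 it was 5 higher and 3 lower. In KO 4 cytosolic genes were higher and 8 lower (median -0.17; 2 higher without mouse 481), 11 mitochondrial genes higher and 1 lower (median 0.51), and 38.6% and 40.8% of all genes higher and lower. Of the 12 cytosolic calls in WT, 7 were lost when 1 mouse was left out. Eprs (log2 change 0.21, limma adjusted p = 0.0349) missed the threshold without mouse 480 (0.171) or 529 (0.148), and Lars (0.0706) and Nars (0.143) did so without mouse 480. Without mouse 529 or 531 the adjusted p was 0.123 and 0.064 for Yars (log2 change -0.63), 0.283 and 0.116 for Aars, 0.0709 and 0.0547 for Farsa, and 0.0755 and 0.0948 for Hars. Cars, Dars, Iars, Rars and Sars passed with any 1 mouse left out. Of the mitochondrial calls, Cars2, Fars2 (0.238 without mouse 529, 0.107 without 531) and Vars2 (0.123 without mouse 531) were lost in the same way.

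Yars, the tyrosyl enzyme, had the largest fall of the 36 genes from day 2 to day 3 in WT. In WT it read 22.4, 38.3 and 37.7 FPKM at day 0, 44.6, 44.1 and 48.8 at day 2, 30.8, 27.5 and 25.5 at day 3 and 23.6, 17.4 and 20.2 at day 4. In KO it read 30.7, 37.2 and 38.0 at day 0, 43.9, 47.2 and 44.6 at day 2, 29.6, 27.4 and 23.8 at day 3 and 25.4, 20.8 and 19.5 at day 4. Day 2 was clear of every other day in both genotypes, and the mouse with the lowest day 0 value in WT, 480, overlapped day 4. The log2 change from day 2 to day 3 was -0.70 in WT (SE 0.117, limma adjusted p = 5.93e-05). Its rise at day 2 was 0.51 in WT (limma adjusted p = 0.0187; 0.166 without mouse 480) and missed the threshold in KO (0.35, limma adjusted p = 0.0934).

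At day 3 against day 0 in WT, 10 cytosolic genes were higher and 2 lower (median 0.28; 6 lower without mouse 480), and 13 mitochondrial genes higher and 1 lower (median 0.65), against 40.4% and 41.6% of all genes. In KO 9 cytosolic genes were higher and 2 lower (median 0.17), and 14 mitochondrial genes higher and 0 lower (median 0.66), against 38.9% and 39.5%. The comparisons with day 0 share its libraries, so they are not independent of one another.

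Levels of the cytosolic and the mitochondrial enzyme for the same amino acid can be set side by side as a ratio of FPKM in 1 library. Of 16 such pairs, with the prolyl and glutamyl activities both set against Eprs and the phenylalanyl enzyme set against Farsa, the ratio at day 4 lay below that of day 0 in every library for 12 and above it for 0. It lay below that of day 2 in every library for 13 pairs. The share of other gene pairs whose ratios part in this way was not computed. Between day 0 and day 4 in WT, 39.2% of all single genes were called higher and 42.7% lower. Those shares are limma calls of single genes in WT, while the pair counts are of ratios over WT and KO libraries together, so the measures differ. The prolyl and glutamyl pairs share Eprs, so the pairs are not independent. The cytosolic gene was the higher one in all 24 libraries for 15 pairs. The exception was the isoleucyl pair, where Iars over Iars2 ran from 0.50 to 1.11 at day 0, from 1.80 to 2.10 at day 2 and from 1.03 to 1.16 at day 4. Wars over Wars2 fell the furthest of the 16, from a median of 20.8 at day 0 to 10.1 at day 2 and 5.78 at day 4. Mars over Mars2 went from a median of 14.2 to 6.62 at day 2 and back to 7.98 at day 4. Beside isoleucine, the pairs whose ratios at day 4 and day 0 overlapped were those of alanine, cysteine and glutamate.

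**Figure D3:**
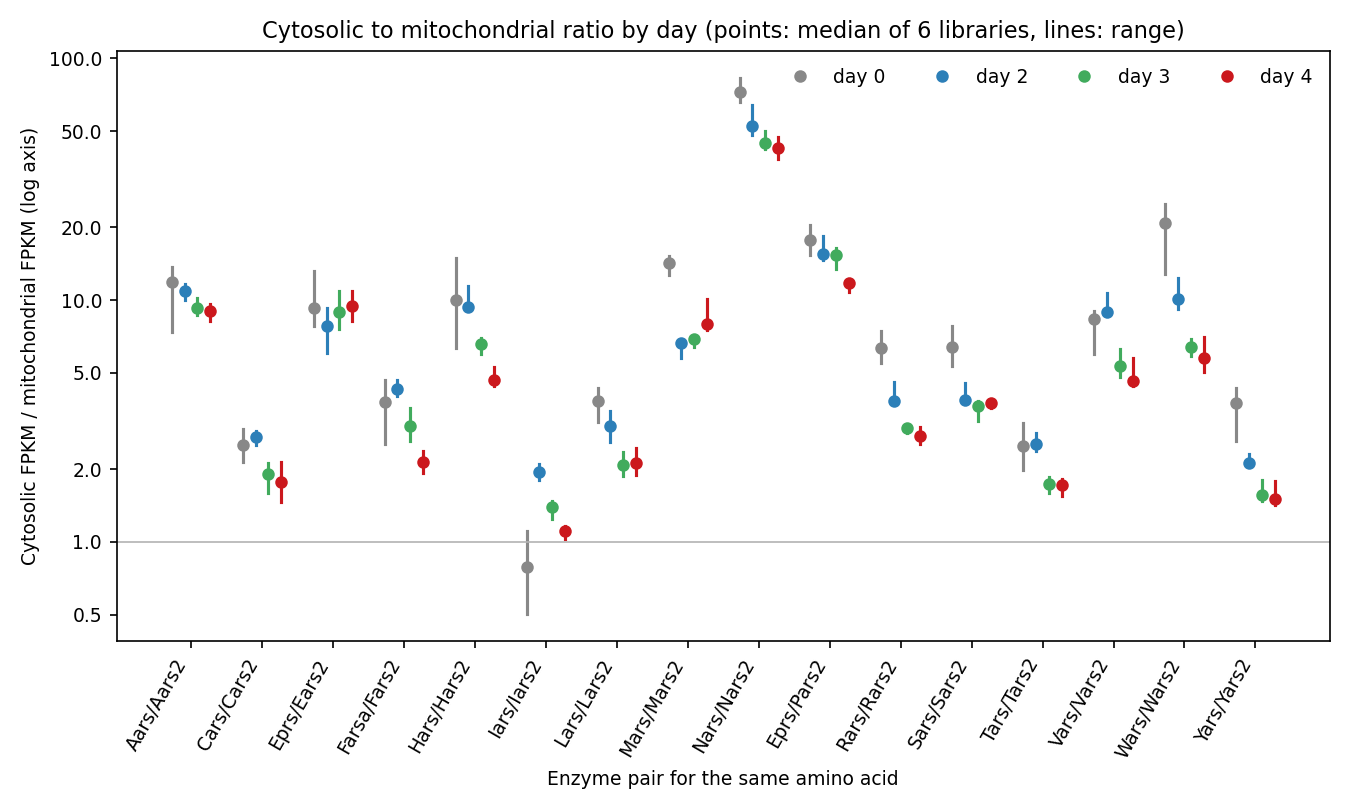
Ratio of the cytosolic to the mitochondrial FPKM for the 16 enzyme pairs, on a log axis, by day; points are the median of the 6 libraries of a day (WT and KO together) and lines their range. Day 4 lies below day 0 with no overlap in 12 pairs, and only the isoleucyl pair crosses a ratio of 1. The share of other gene pairs that part in this way was not computed.

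Within the cytosolic set, the 8 enzymes of the multisynthetase complex (Dars, Eprs, Iars, Kars, Lars, Mars, Qars and Rars) can be set beside the 12 outside it. At day 2 in WT, 7 of the 8 rose and 0 fell, with a median log2 change of 0.83, and of the 12 others 8 rose and 1 fell, with a median of 0.49; over all genes 38.5% rose and 37.5% fell. At day 4 the complex had 4 higher and 1 lower (median 0.19), and the others 1 higher and 6 lower (median -0.33), with 39.2% and 42.7% of all genes higher and lower. KO gave 3 higher and 2 lower in the complex (median 0.10), and 1 and 6 outside it (median -0.24). These are counts of named genes, and the difference between the groups of enzymes was not tested. The WT calls at day 4 leaned on single mice. Without mouse 480, Eprs and Lars of the complex were lost and Kars passed as lower. Outside it Nars was lost, and Tars, Vars and Wars passed as lower. Without mouse 529, Eprs was lost in the complex and Aars, Farsa, Hars and Yars outside it, where Gars passed as higher. From day 3 to day 4 in WT all 8 complex genes fell, and 11 of the 12 others, against 19.8% of all genes. Without mouse 529 the complex count was 5 of 8, with Iars, Lars and Mars lost, and with equal weights it was also 5, with Dars, Iars and Lars lost. KO gave 6 of 8 and 9 of 12.

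Among the cytosolic genes with a promoter entry, those with a CARE core had the lower median change just after day 2. From day 2 to day 3 the median log2 change of Aars, Gars, Iars, Tars and Yars was -0.44 in WT (range -0.70 to -0.12) and -0.42 in KO, and that of the 8 cytosolic genes whose promoter entry lacks the core was -0.17 (range -0.47 to 0.02) and -0.15. The ranges overlapped. At day 2 against day 0 the medians were 0.90 and 0.66 in WT and 0.78 and 0.61 in KO, and from day 3 to day 4 they were -0.32 and -0.34 in WT. Cytosolic genes with no promoter entry are in neither group. Among them, from day 2 to day 3, Cars went from 40.2 to 26.2 FPKM, Vars from 49.9 to 33.1 and Nars from 199.7 to 171 (WT means). Aars shares 1326 exon bases with Exosc6 on the same strand, so its level is uncertain.

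The wider amino acid response list, drawn up around ATF4, did not follow the synthetases as a whole. Of 18 tested genes, 6 rose and 10 fell at day 2 in WT, and 1 rose and 14 fell at day 4, with a median log2 change of -1.07 (KO 3 and 9, then 0 and 13). The share of rises at day 2 was near that of all genes (38.5% rose and 37.5% fell), and at day 4 the table had 39.2% and 42.7%. Those with the smallest adjusted p at day 4 were Atf5 (88.4 to 10.3 FPKM, mean of 3), Atf3 (211 to 16.7), Phgdh (25.6 to 0.441), a serine synthesis enzyme, and Cebpb (218 to 35.6). Asparagine synthetase, Asns, a standard CARE gene named after its values were seen, read 49.5 ± 26.1 FPKM (SD, n = 3) at day 0, 93.1 ± 5.77 at day 2, 49.6 ± 4.05 at day 3 and 29.2 ± 6.45 at day 4 in WT. Asns rose at day 2 (log2 change 1.08, limma adjusted p = 0.0024) and fell from day 2 to day 3 (-0.90, limma adjusted p = 0.00041), with the widest spread at day 0. Atf4 itself, likewise named afterwards, went from 400 to 209 and 173 FPKM at days 2 and 4, a log2 change of -1.19 at day 4 (limma adjusted p = 5.3e-07).

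STING deficiency gave no detected difference in any synthetase gene. KO against WT, 0 of 36 genes passed at days 0, 2, 3 and 4, where 0.0992%, 0.0298%, 0.0198% and 0.0298% of all genes did (limma, Benjamini-Hochberg adjusted over all genes). The genotype by day interaction also gave 0 of 36 at days 2, 3 and 4, with 0.0397%, 0.0694% and 0.0496% of all genes. An unadjusted p under 0.05 was seen for 1 gene at day 0 (Iars), 0 at day 2, 1 at day 3 (Fars2) and 0 at day 4, and for 1 interaction (Iars at day 3). No other tool was run.

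The bounds on the genotype differences were tight after day 0. At days 2, 3 and 4 the 95% interval of KO minus WT lay within 0.5 on the log2 scale for all 36 genes. At day 0, where libraries varied more, it did so for 14 of 20 cytosolic and 13 of 16 mitochondrial genes. For Iars at day 0 the difference was 0.52 (95% interval 0.05 to 1.001, SE 0.229, limma adjusted p = 1), and the libraries overlapped. Fars2 at day 3 read 15.6, 16.7 and 15.2 FPKM in WT and 17.0, 19.5 and 17.5 in KO, which do not overlap (difference 0.17, 95% interval 0.02 to 0.32, limma adjusted p = 0.934). Lars2 had the smallest p at days 2 and 4. At day 4 it read 10.4, 11.01 and 9.76 in WT and 11.6, 11.5 and 11.6 in KO, again without overlap, a difference of 0.14 (95% interval -0.01 to 0.29, limma adjusted p = 1).

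The libraries of WT and KO failed to overlap for few of the 36 genes, a share near that of the table. At day 0 this held for 1 of 36 genes (Eprs, higher in KO), against 5.88% of all genes, at day 2 for 0 (3.91%), at day 3 for 4 (Sars, Fars2 and Vars2 higher and Wars2 lower in KO, 7.47%) and at day 4 for 1 (Lars2, 3.98%). Wars, the interferon-inducible gene, differed by 0.06, 0.03, 0.03 and 0.00 at days 0, 2, 3 and 4, with 95% intervals of -0.22 to 0.34, -0.12 to 0.18, -0.10 to 0.15 and -0.14 to 0.14. At day 4 all 20 cytosolic genes had a difference above 0, with a median of 0.07 and a largest value of 0.12, none past the test. The median over all genes tested was 0.01, and the share of all genes above 0 is not given here. These genes were read from the same libraries, so their directions are not independent. Mouse 481 had the highest cytosolic sum of the KO libraries at day 4 (1149 FPKM, others 1049 and 1036) and mouse 480 that of the WT libraries (1111, others 968 and 1028).

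**Figure D4:**
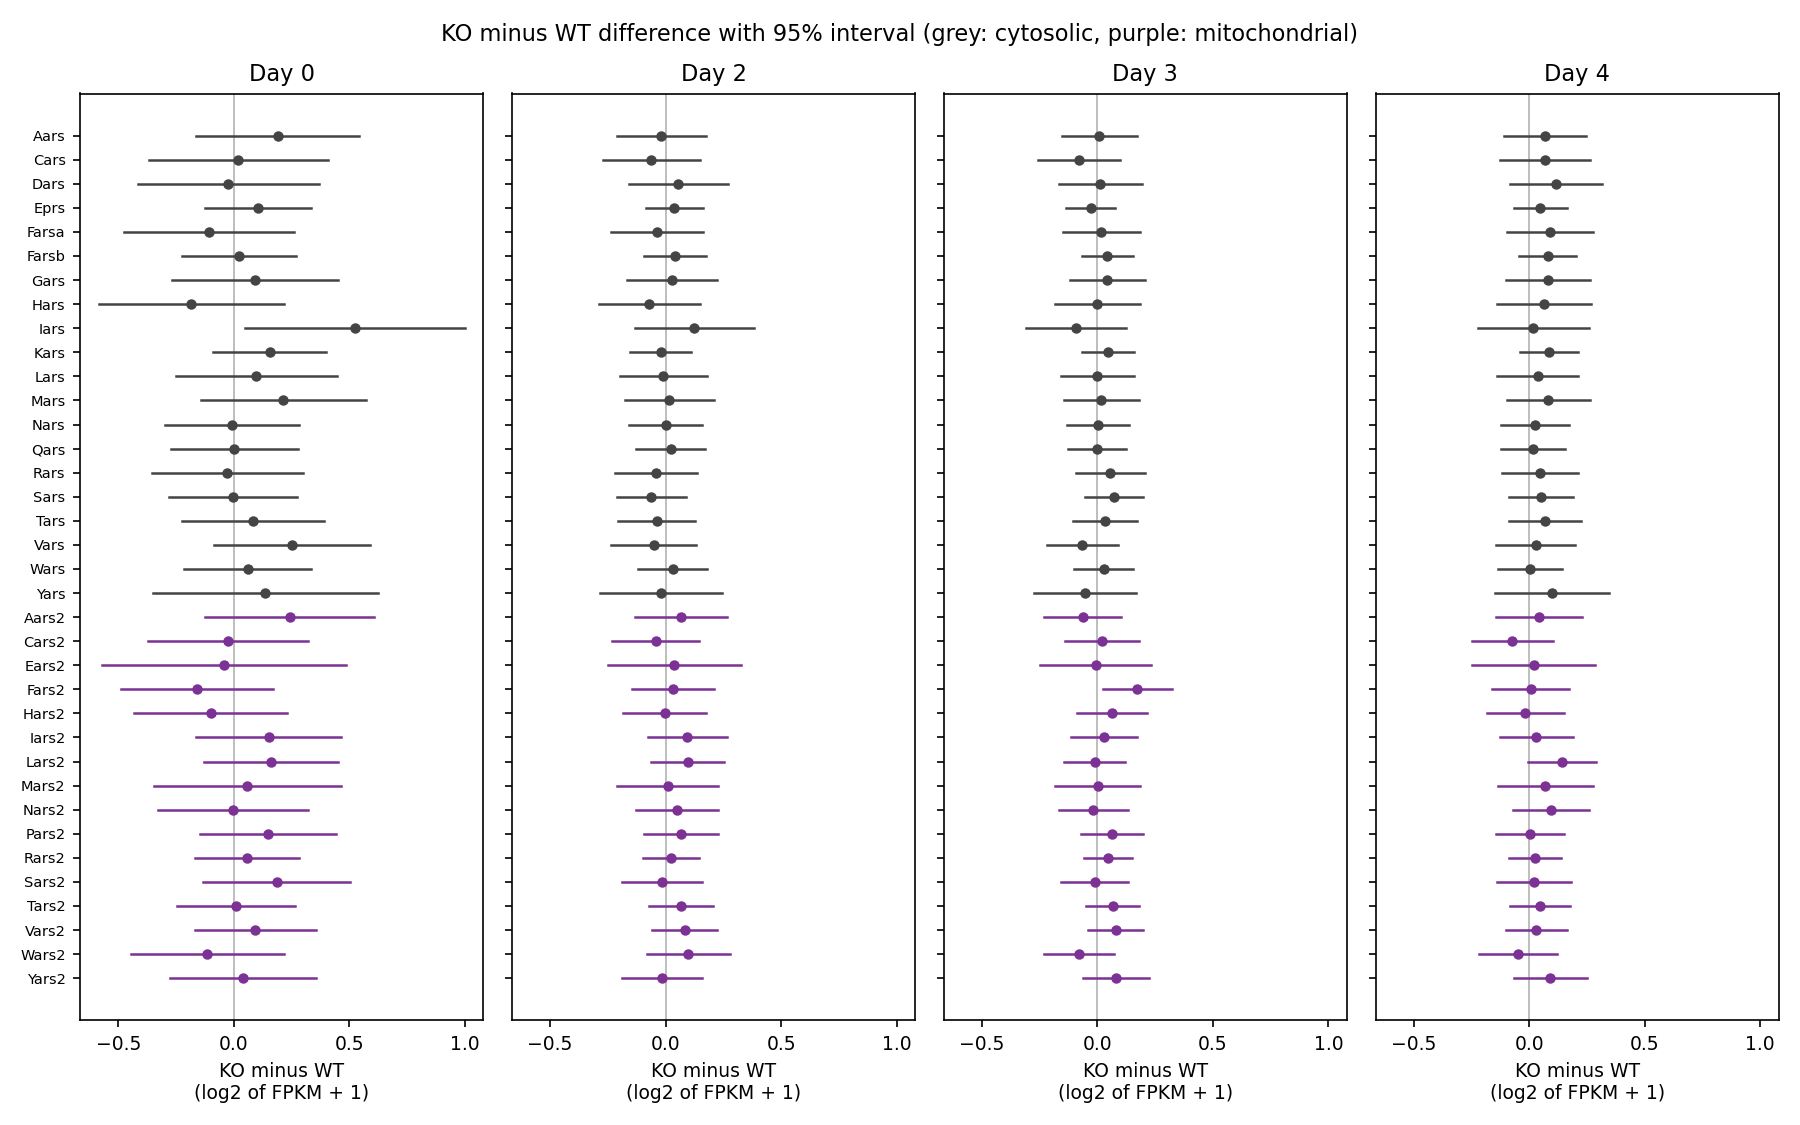
Difference KO minus WT for each of the 36 genes, on the log2(FPKM + 1) scale, at days 0, 2, 3 and 4; points are the fitted differences and lines their 95% intervals (grey cytosolic, purple mitochondrial). Every interval at days 2, 3 and 4 lies within 0.5 of 0, and those of day 0 are wider, with Iars at 0.52.

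The changes themselves ordered the genes much alike in the genotypes, which share no library. Across the 36 genes the log2 changes of WT and KO correlated with Pearson's r of 0.971 at day 2 against day 0, 0.961 at day 3 and 0.976 at day 4 (Spearman's rho 0.956, 0.951 and 0.968). This is a description across genes, which are not independent, and the genotypes share a table and its normalization. A correlation does not compare the sizes of the changes. The call was the same in WT and KO for 32, 33 and 29 of 36 genes in these comparisons, and opposite for 0. Iars had the largest gap between the genotypes at all 3 days (0.40, 0.62 and 0.51), and its day 0 level was the higher one in KO by 0.52, as given above. None of its interaction tests passed (limma adjusted p = 0.906 at day 3, the smallest).

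The genes that work beside the synthetases were counted from lists of the pathway. The counts are to be read against all genes tested in WT, of which 38.5% rose and 37.5% fell at day 2, and 39.2% rose and 42.7% fell at day 4. Of the 3 scaffold proteins of the multisynthetase complex, Aimp2 (36.6 to 62.8 FPKM, WT means) and Eef1e1 (41.1 to 76.5) rose at day 2, and Aimp1 (88.1 to 45.5) was lower at day 4. Among 8 paralogues and editing proteins 3 rose and 3 fell at day 2, and 2 rose and 5 fell at day 4 (KO 2 and 3, then 2 and 4); the day 2 shares match those of all genes. Tarsl2, a threonyl-tRNA synthetase paralogue, had the largest rise of that list, from 2.10 ± 0.66 FPKM (SD, n = 3) to 8.74 ± 0.48 at day 2 and 11.4 ± 0.96 at day 4 in WT, a log2 change at day 4 of 2.02 (limma adjusted p = 5.9e-11). Aarsd1 (46.6 to 14.2) and Prorsd1 (15.1 to 7.20) fell by day 4. Of the 3 tested genes for the mitochondrial glutaminyl-tRNA amidotransferase and methionyl-tRNA formylation, 2 rose and 0 fell at day 2, and at day 4 Pet112l was higher (11.2 to 16.3) and Mtfmt lower (7.82 to 5.26).

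In transfer RNA maturation and export, 8 of 19 genes rose and 3 fell at day 2, and 6 rose and 9 fell at day 4 (KO 8 and 4, then 6 and 8), and the shares of rises at day 2 and of falls at day 4 were near those of all genes (38.5% and 42.7%). Xpot, which exports transfer RNA from the nucleus, went from 14.3 ± 2.41 FPKM to 32.3 ± 2.12 at day 2 and 35.5 ± 3.76 at day 4 (SD, n = 3, WT), with all later days above day 0. Rpp21 (133 to 50.1) fell, and Elac2 (7.95 to 15.1) rose. The list for RNA polymerase III, which transcribes transfer RNA genes, also holds factors such as Brf1 and Gtf3c1 and the repressor Maf1. Of the 20 listed genes 11 were up and 3 down at day 2, and 10 up and 7 down at day 4 (KO 8 and 7). Over all genes 38.5% and 37.5% were higher and lower at day 2, and 39.2% and 42.7% at day 4. Maf1 went from 88.0 to 37.1 FPKM at day 2 and 46.8 at day 4.

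Translation factors were counted in the same way, beside 38.5% of all genes up and 37.5% down at day 2, and 39.2% and 42.7% at day 4. Of 7 cytosolic elongation and termination factors 3 rose and 0 fell at day 2, and 2 rose and 5 fell at day 4 (KO 1 and 5), among the falls Eif5a (969 to 464 FPKM at day 4) and Eef1g (221 to 136). Of 9 mitochondrial factors 5 rose and 0 fell at day 2, and 5 rose and 1 fell at day 4 (KO 6 and 0, then 5 and 1). Gfm1, the mitochondrial elongation factor G, went from 31.3 ± 4.38 FPKM to 80.4 ± 1.36 at day 2 and 74.7 ± 7.02 at day 4 (SD, n = 3, WT; log2 change at day 4 1.23, limma adjusted p = 1.5e-09). Gfm2 (9.12 to 18.3) and Tufm (25.8 to 43.0) were higher at day 4 as well.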

How the data were processed

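Per the labels, RNA was sequenced from 24 libraries, 8 groups of 3 mice. The authors deposited FPKM per gene and library in 1 table; per the submitters' processing notes they used HISAT2 2.0.5, Cufflinks 2.2.1, Cuffdiff and the mm10 build. For the annotation, strand setting, trimming and the rule that selected the 10721 genes: not given in the sources used here. All value columns were used (0 left out). FPKM give no counts, so absolute depth is unknown. From the step that 1 fragment makes in low values (up to 0.3 FPKM), depth within a group was 0.957 to 1.171 of the first mouse's, except 0.688 for WT day 3 mouse 531; number of mice limits the precision.

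Values were tested as log2(FPKM + 1), so fold changes of low genes are understated, with limma 3.58.1 (R 4.3.3): 1 mean per group, a mean-variance trend, 1 weight per day (0.355, 1.20, 1.70 and 1.38 for days 0, 2, 3 and 4), 16 residual degrees of freedom, 17 comparisons, two-sided p adjusted by Benjamini-Hochberg over the 10081 genes whose mean reached 1 FPKM in any group. The fit was tested on simulated data. P-values rest on the spread between mice. The main fit has no mouse term, so libraries of 1 mouse count as independent. Libraries of 1 mouse deviated together only weakly: the correlation of their deviations from group means had a median of 0.136 in WT (10 of 18 pairs over 0.1) and 0.261 in KO (17 of 18), and the labels tie the days to the mouse, so a mouse block was fitted as an alternative.

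The members, lists and design were chosen with earlier results of these data known. Genes described in every library are the 5 per compartment with the largest change among those called at WT day 4 against day 0, the largest opposite change, the smallest p in each genotype comparison, and Wars, Gars, Kars, Qars and Eprs; of other lists, up to 4 by adjusted p at WT day 4. A few items that this rule or the motif search gave are not reported here. Positions are from GENCODE (GRCm38), and near copies from blastn 2.17.0 (at least 95% identity over 200 bases).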

Additional observations from a re-analysis of the deposited data

How the results depend on the processing

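Under other settings (a pseudocount of 0.1, no filter or a minimum of 5 FPKM, median scaling, equal weights, only the groups compared, a mouse block, each mouse left out) 6578 of 6842 single-gene results kept their direction and side of the threshold, 209 lost and 55 gained a call, and 0 reversed. Of the counts, 366 of 382 stayed within 1.5 times. These totals pool the comparisons between days with the genotype and interaction comparisons, where no synthetase gene passed. All call changes and moved counts were in the comparisons between days, so the totals overstate how stable the changes with time were. With equal weights for all libraries the count of mitochondrial genes called was 4 (WT day 3 against day 2, 8 with day weights), 7 (WT day 4 against day 3, 11), 3 (KO day 3 against day 2, 8) and 5 (KO day 4 against day 3, 8), and that of cytosolic genes 7 (KO day 4 against day 3, 15). Leaving out 1 mouse gave 10 to 15 cytosolic and 5 to 7 mitochondrial calls for WT day 3 against day 2, and 12 to 18 and 7 to 9 for WT day 4 against day 3. In KO it gave 2 to 5 mitochondrial calls for day 3 against day 2, and 8 to 11 cytosolic and 5 to 6 mitochondrial calls for day 4 against day 3. The cause was not tested, beyond the fewer samples. With the replicate block (mouse, fixed) 17 cytosolic genes passed at WT day 2 against day 0 (16 without it), 12 at day 4 (12), no count moved by more than 1.5 times, and 12 single calls were gained and 2 lost; with mouse as a random block 0 genes passed between the genotypes. FPKM of low genes such as Nars2 and Wars2 (under 6 FPKM) rest on few fragments, and their depth is not known.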

Other observations

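Of 11 amino acid transporters 6 rose and 4 fell at day 2 in WT (median log2 change 0.49), where 38.5% and 37.5% of all genes did, and 2 rose and 4 fell at day 4 (median -0.46), where 39.2% and 42.7% did. KO gave 4 rises and 4 falls at day 2, and 2 and 8 at day 4. Slc1a5, a glutamine carrier, went from 34.5 FPKM at day 0 to 136 at day 2 and 151 at day 4 (WT means of 3; log2 change at day 4 2.09, limma adjusted p = 1.3e-09), and in KO from 39.0 to 141 and 158. Slc38a2 went from 32.3 to 58.3 at day 4. Slc3a2, the shared heavy chain of several amino acid exchangers, fell from 142 to 80.1, and Slc7a8 from 43.9 to 17.98. Proliferation genes were mixed at day 2 in WT, with 5 of 15 higher and 3 lower, and 14 of 15 were lower at day 4 (median log2 change -1.499).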
